A study of Mus musculus with 7 samples.

Results

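The NMDA receptor subunit genes are Grin1, Grin2a, Grin2b, Grin2c, Grin2d, Grin3a and Grin3b, and they were taken by symbol from the deposited gene and transcript counts. All 7 were present among 22248 genes, and 6 of them were among the 14654 genes that passed the filter on low counts. Grin3b did not pass it. Their 39 transcripts were taken from the 102392 transcripts counted, and 35 of these had any count. The 17 that passed the filter on low counts were among 33962 such transcripts.

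The libraries hold messenger RNA of synaptoneurosomes, preparations of pinched-off nerve terminals with attached postsynaptic membrane, from the hippocampus of female wild-type C57Bl/6J mice. There were 4 libraries (replicates B, D, E and F) of animals treated sub-chronically with AM6545, an antagonist of the CB1 cannabinoid receptor that enters the brain poorly, and 3 (replicates B, D and E) of animals given vehicle. Neither group carries an altered allele. Age, dose, treatment length and the number of animals behind a library are not given in the sources used here, and nothing says that replicates came from separate animals, so p-values measure the spread between these libraries only. The comparison asks how the treatment changed the synaptic transcriptome.

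NMDA receptors are glutamate-gated cation channels that open when glutamate binds while the membrane is depolarised and a co-agonist, glycine or D-serine, is also bound. Each receptor contains the obligatory GluN1 subunit, encoded by Grin1, with GluN2 subunits (Grin2a to Grin2d) that bind glutamate or GluN3 subunits (Grin3a and Grin3b) that bind glycine. In the hippocampus, GluN2A and GluN2B are the main partners of GluN1, and calcium entering through these channels starts synaptic plasticity.

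GluN1 is made in several splice forms that differ by the N1 cassette in the extracellular amino-terminal domain, the C1 cassette in the intracellular tail, and either the C2 or the C2' ending. The 4 stretches are shown because every Grin1 splice form described here is a combination of them. They were read from GENCODE release M21 transcripts, on the minus strand of GRCm38, 5′ to 3′. In C1 the capitals mark a run of 3 arginine codons, which lies in a known endoplasmic reticulum retention signal. In C2' they mark the last 4 codons before the stop, which encode the receptor's PDZ-binding end.
N1: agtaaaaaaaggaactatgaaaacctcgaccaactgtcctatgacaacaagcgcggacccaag
C1: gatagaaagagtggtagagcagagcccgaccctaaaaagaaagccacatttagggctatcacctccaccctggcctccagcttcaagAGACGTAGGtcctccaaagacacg
C2: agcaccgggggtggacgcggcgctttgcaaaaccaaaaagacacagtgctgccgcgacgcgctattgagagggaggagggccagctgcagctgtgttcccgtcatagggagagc
C2': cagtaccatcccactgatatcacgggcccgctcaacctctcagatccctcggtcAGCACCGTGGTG

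N1 is exon 4 of the forms that carry it, 63 bases (21 codons) at chr2:25311343-25311405. C1 is 111 bases (37 codons) at chr2:25294438-25294548 and is the last exon but one. C2 is a coding stretch of 114 bases (38 codons) at chr2:25292371-25292484, at the start of the terminal exon when its upstream acceptor is used. Splicing to the acceptor 356 bases further downstream removes C2 and its stop and opens C2', 66 coding bases (22 codons) at chr2:25292063-25292128. The 8 coding Grin1 transcripts of the annotation are the 8 combinations of these choices. Bases of N1 are 44.4% G or C, against 52.3% for C1, 62.3% for C2 and 60.6% for C2'.

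A second alternative stretch, in Grin3a, is shown because the transcript that carries it had the highest ratio of AM6545 to vehicle among the subunit transcripts named here. Grin3a-202 differs from Grin3a-201 only by an upstream acceptor of exon 9 of 9, which adds 60 coding bases (20 codons) at chr4:49665566-49665625, minus strand of GRCm38.
Grin3a-202: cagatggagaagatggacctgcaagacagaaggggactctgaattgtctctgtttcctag

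Library totals ran from 19174649 to 25894733 estimated counts, and mitochondrial transcripts took 5.07% to 9.83% of counts, with the highest share in Vehicle replicate B. No pair of libraries agreed within counting noise. Vehicle replicate B was also the highest library for 6 of the 6 subunit genes tested, and for 27.4% of all genes tested. Markers of excitatory neurons, such as Nrgn and Slc17a7, were all detected, and levels are given in CPM, the count scaled by the TMM method to a common library size. Of the 3 cerebellar granule cell markers, Gabra6 and Cbln3 were under 1 CPM and Neurod1 was at 43.9 CPM.

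Levels of different subunits were compared per length, in TPM computed here from the counts per kilobase of coding transcripts. Grin1 was the most abundant at a mean of 146.9 TPM over the 7 libraries, with a range of 139.9 to 158.9. Grin2b followed at 36.6 TPM (30.4 to 44.4), then Grin2a at 23.4 TPM (21.1 to 25.2). These 3 mRNAs, of the obligatory subunit and of its main hippocampal partners, had ranges that did not overlap.

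Grin2c, encoding GluN2C, a subunit best known from cerebellar granule cells and also described in astrocytes and interneurons, had a mean of 9.14 TPM (6.78 to 10.1). Grin3a, encoding GluN3A, had 7.0 TPM (5.46 to 8.28). The ranges of these neighbours overlapped, although Grin2c was above Grin3a within each of the 7 libraries, by a ratio of means of 1.31. Grin2d, encoding GluN2D, known in the hippocampus mainly from interneurons, had 3.97 TPM (3.52 to 4.48). Every other neighbouring pair in this order was separated in range.

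**Figure D1:**
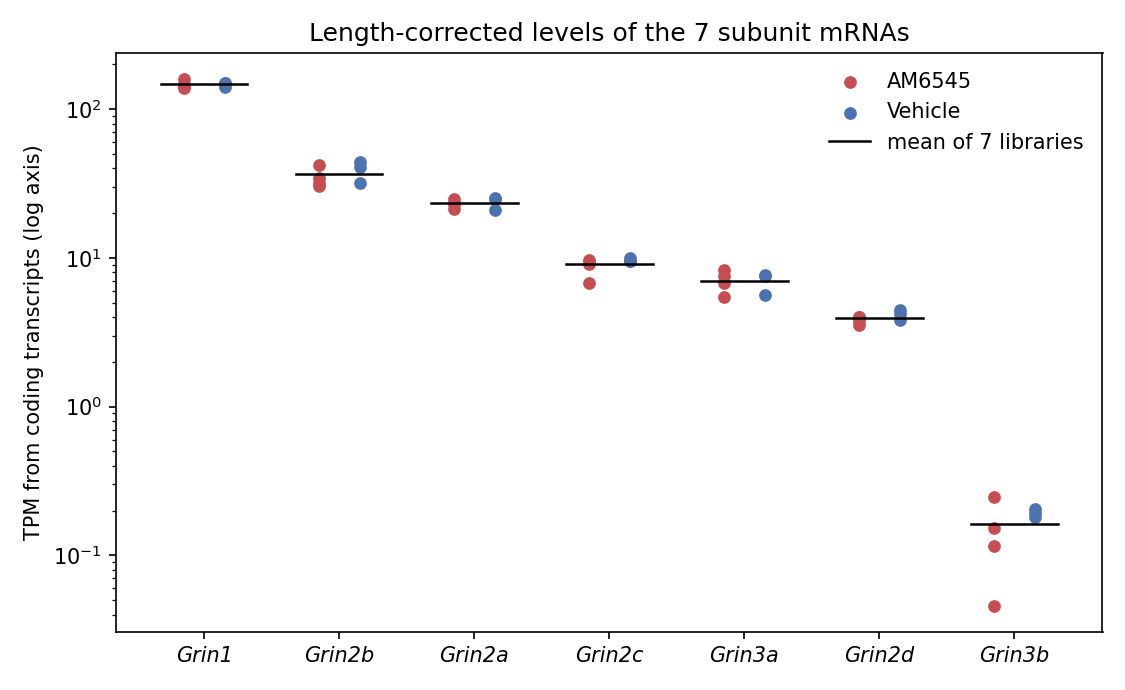
Level of each subunit mRNA, in TPM from coding transcripts (log axis), with 1 point per library (4 AM6545, 3 vehicle) and a line at the mean of the 7 libraries. Grin1 lies at 139.9 to 158.9 and Grin3b at 0.0459 to 0.246, and only Grin2c and Grin3a overlap among neighbours.

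Expressed as ratios of these per-length means, Grin1 mRNA was 4.02 times Grin2b, 6.27 times Grin2a and 16.1 times Grin2c. Of the summed per-length level of the 7 genes, Grin1 took 65.5% ± 3.03 in AM6545 (SD, n = 4) and 63.7% ± 3.60 in vehicle (SD, n = 3) libraries. The summed level of the Grin2 genes, whose products pair with GluN1, was exceeded by Grin1 in every library, by 2.11 ± 0.287 times in AM6545 (SD, n = 4) and by 1.94 ± 0.305 times in vehicle (SD, n = 3). These ratios per library ran from 1.77 to 2.38 in AM6545 and from 1.68 to 2.27 in vehicle, so the groups overlapped. A ratio of mRNAs gives no ratio of subunits in receptors.

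Only coding transcripts of at least 1 kb entered these levels, a choice made after the values were seen. The 241-base Grin2b-207 held 1.8% of Grin2b counts but 42.3% of the gene's per-length level, and with all transcripts the mean level of Grin2b was 66.0 TPM (47.8 to 86.8) in place of 36.6 TPM. Its place between Grin1 and Grin2a was the same with either choice.

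Grin3b, encoding GluN3B, which is best known from motor neurons, was close to undetected. Its estimated counts were 6, 1, 4 and 7.06 in AM6545 replicates B, D, E and F and 6, 4 and 6 in Vehicle replicates B, D and E, or 34.1 in all. Its level was 0.163 TPM, against 3.97 TPM for Grin2d, the next lowest member. It was left out of the main gene test. With no filter on low counts its log2 fold change was -0.33 (SE 0.63; edgeR adjusted p = 0.844).

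AM6545 libraries had lower group means than vehicle libraries for all 6 subunit genes tested in CPM, but none passed the test after adjustment. The fitted fold changes corresponded to AM6545 levels 7.4% (Grin3a) to 21.4% (Grin2b) lower. Adjusted p-values of the 6 ran from 0.282 to 0.739 by edgeR's quasi-likelihood test with Benjamini-Hochberg adjustment over all genes. In the same comparison 1 of 14654 genes, or 0.00682%, passed. The log2 fold changes had a median of -0.21, against 0.01 over all genes, of which 48.6% were below 0. The sign of each of the 6 was the same under every scaling of counts tried, but not under the GC and length correction (Grin2a and Grin2d), without Vehicle replicate B (Grin3a) or in TPM (Grin1 and Grin3a). Grin2b and Grin2c had an unadjusted p under 0.05 and a lower AM6545 level, which was true of 8.7% of all genes tested.

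Grin1 on chromosome 2 (ENSMUSG00000026959, chr2:25291181-25319187, minus strand) was measured at 302.5, 282, 314 and 284 CPM in AM6545 replicates B, D, E and F. Vehicle replicates B, D and E had 335, 306 and 324 CPM. Of the 4 AM6545 levels 3 were below the lowest vehicle level, and replicate E lay inside the vehicle range. Group means were 295.7 ± 15.3 (SD, n = 4) and 321 ± 14.7 CPM (SD, n = 3), a log2 fold change of -0.12 (SE 0.09; 95% interval -0.32 to 0.08; edgeR adjusted p = 0.542). TPM is scaled to the same total in each library, without TMM factors. In TPM the group means of Grin1 were 146.9 ± 8.65 (SD, n = 4) and 146.8 ± 5.57 (SD, n = 3). The difference of Grin1 in CPM was not present there, although the measures differ in scaling between libraries as well as in length. Grin1os overlaps its exons on the opposite strand, and whether counting used strand is not given in the sources used here, so their reads may not be separated. Exons of Grin2b, Grin2c, Grin2d and Grin3b also overlap other genes on the opposite strand, with the same limit.

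Grin2a (ENSMUSG00000059003, chr16:9567898-9995560, minus strand), the subunit gene that takes over from Grin2b as hippocampal synapses mature, was measured at 162, 173, 172 and 187 CPM in AM6545 replicates B, D, E and F. Vehicle replicates B, D and E had 223, 188 and 169 CPM. Vehicle replicate B was highest and Vehicle replicate E lay among the AM6545 levels. The log2 fold change was -0.16 (SE 0.11; 95% interval -0.39 to 0.08; edgeR adjusted p = 0.504). It was -0.04 without Vehicle replicate B and -0.24 without Vehicle replicate E, and with each library corrected for its trend with GC content and transcript length it was 0.01.

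Grin2b (ENSMUSG00000030209, chr6:135713233-136173511, minus strand), encoding the subunit that binds CaMKII and is prominent at young synapses, had the largest difference of the 6 in the fit to all libraries. It was measured at 157, 178, 161 and 203 CPM in AM6545 replicates B, D, E and F, and at 267.5, 217 and 183 CPM in Vehicle replicates B, D and E. The groups overlapped only because AM6545 replicate F exceeded Vehicle replicate E. Group means were 174.9 ± 20.8 (SD, n = 4) and 222.5 ± 42.6 CPM (SD, n = 3), or 21.4% lower in AM6545. The log2 fold change was -0.35 (SE 0.13; 95% interval -0.64 to -0.06; edgeR adjusted p = 0.282, unadjusted p = 0.0234). Without Vehicle replicate E the log2 fold change was -0.47 and passed (edgeR adjusted p = 0.0416), in a fit that called 944 of 14807 genes. Without Vehicle replicate B it was -0.19 (adjusted p = 0.828), and with the GC and length correction -0.13 (adjusted p = 0.783).

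Grin2c (ENSMUSG00000020734, chr11:115249169-115267243, minus strand) was the only tested subunit gene whose groups did not overlap, which was seen with AM6545 lower for 7.19% of all genes tested. It was measured at 15.3, 21.3, 20.5 and 20.2 CPM in AM6545 replicates B, D, E and F and at 25.1, 22.3 and 22.8 CPM in Vehicle replicates B, D and E. The gap between the groups was small, since AM6545 replicate D at 21.3 CPM lay close to Vehicle replicate D at 22.3 CPM. The log2 fold change was -0.28 (SE 0.13; 95% interval -0.55 to -0.01; edgeR adjusted p = 0.335, unadjusted p = 0.0461). With the GC and length correction it was -0.16, and without AM6545 replicate B -0.19. Summed markers of astrocytes, a cell type in which Grin2c is known, ran from 2250 to 2580 CPM in AM6545 and from 2280 to 2770 CPM in vehicle, and their part in the result was not tested.

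Grin2d (ENSMUSG00000002771, chr7:45831883-45878378, minus strand) was measured at 9.88, 11.0, 10.8 and 9.68 CPM in AM6545 replicates B, D, E and F. Vehicle replicates B, D and E had 14.3, 11.6 and 10.9 CPM. All but AM6545 replicate D were below the lowest vehicle library, whose level it exceeded slightly. The log2 fold change was -0.25 (SE 0.13; 95% interval -0.53 to 0.03; edgeR adjusted p = 0.387). Without Vehicle replicate B it was -0.12, and with the GC and length correction it was 0.033. Grin2d mRNA has the highest GC content of the family at 65.1%, and that of Grin2a is the lowest at 44.9%. Summed interneuron markers ran from 916 to 1040 CPM in AM6545 and from 1030 to 1210 CPM in vehicle, and their part in the Grin2d value was not tested.

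Grin3a (ENSMUSG00000039579, chr4:49661611-49845744, minus strand), whose product lowers the calcium permeability of the receptors that contain it, was measured at 21.9, 29.0, 31.0 and 25.9 CPM in AM6545 replicates B, D, E and F. Vehicle replicates B, D and E had 34.0, 29.5 and 23.5 CPM, so the groups overlapped widely. The log2 fold change was -0.11 (SE 0.15; 95% interval -0.43 to 0.21; edgeR adjusted p = 0.739). It was 0.02 without Vehicle replicate B, -0.24 without Vehicle replicate E and -0.028 without AM6545 replicate B, and in TPM the AM6545 mean of 7.04 was above the vehicle mean of 6.95.

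**Figure D2:**
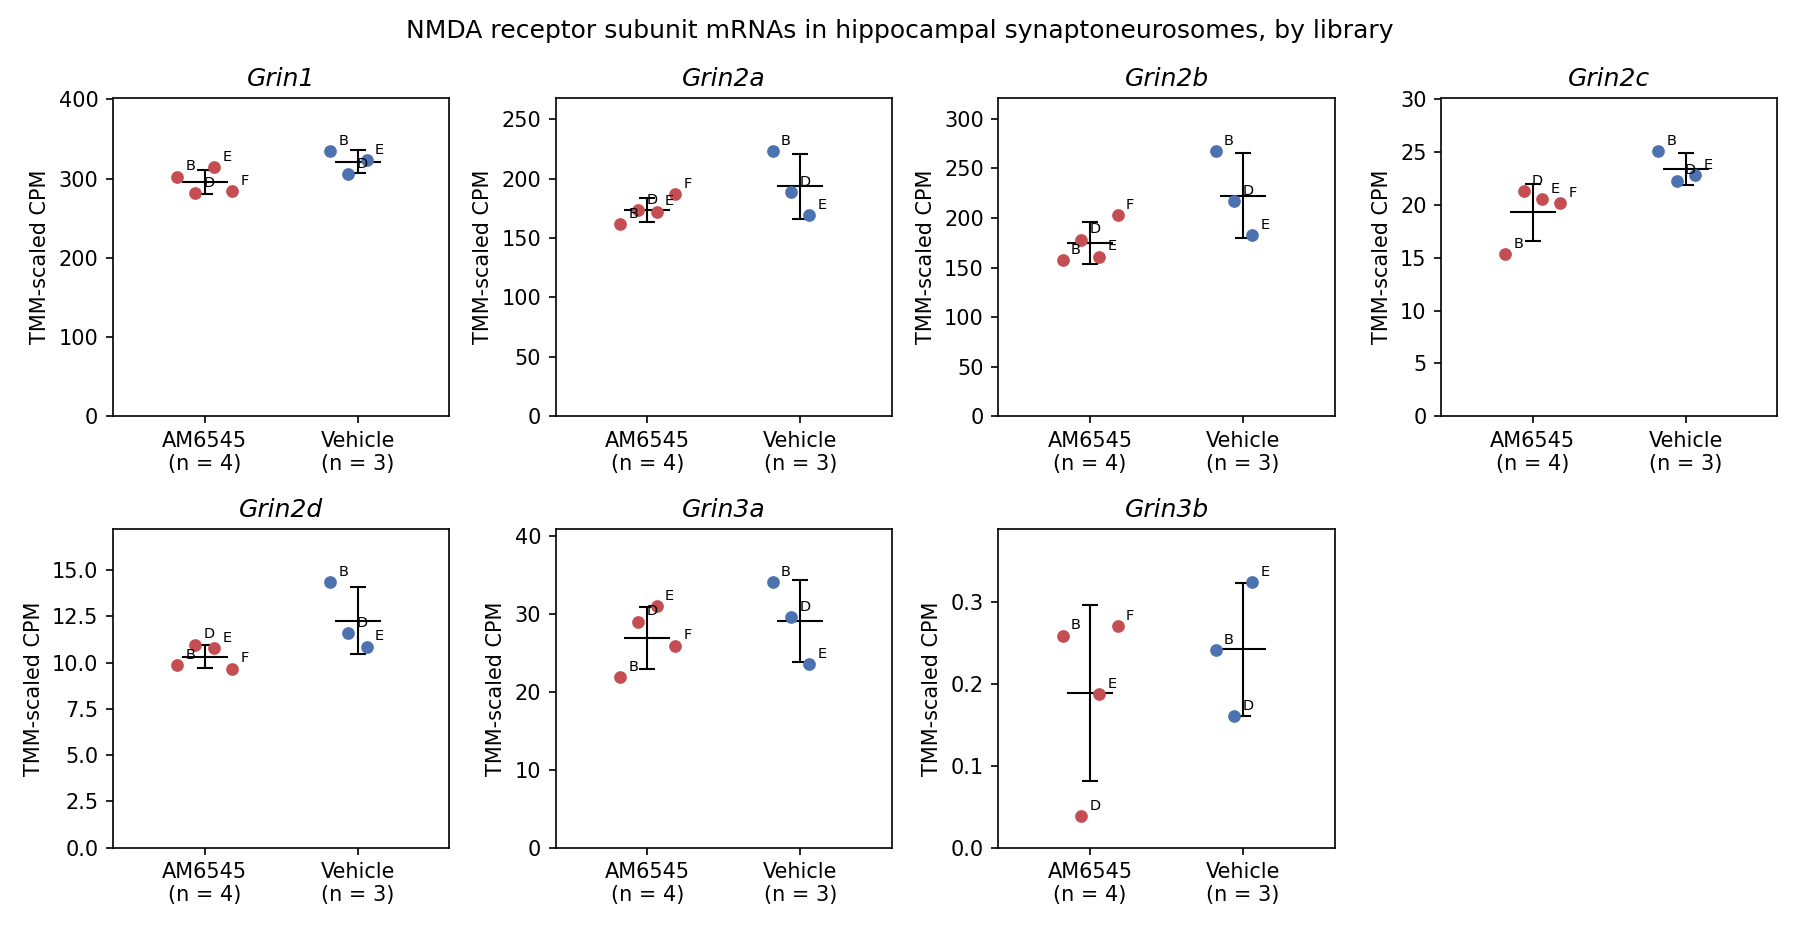
TMM-scaled CPM (vertical axis, from 0) of the 7 subunit genes in 4 AM6545 and 3 vehicle libraries. Points are libraries with their replicate letter, and bars show the mean and SD of each group. Vehicle replicate B is the highest point in all panels but that of Grin3b, and only for Grin2c do the groups not overlap.

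**Figure D3:**
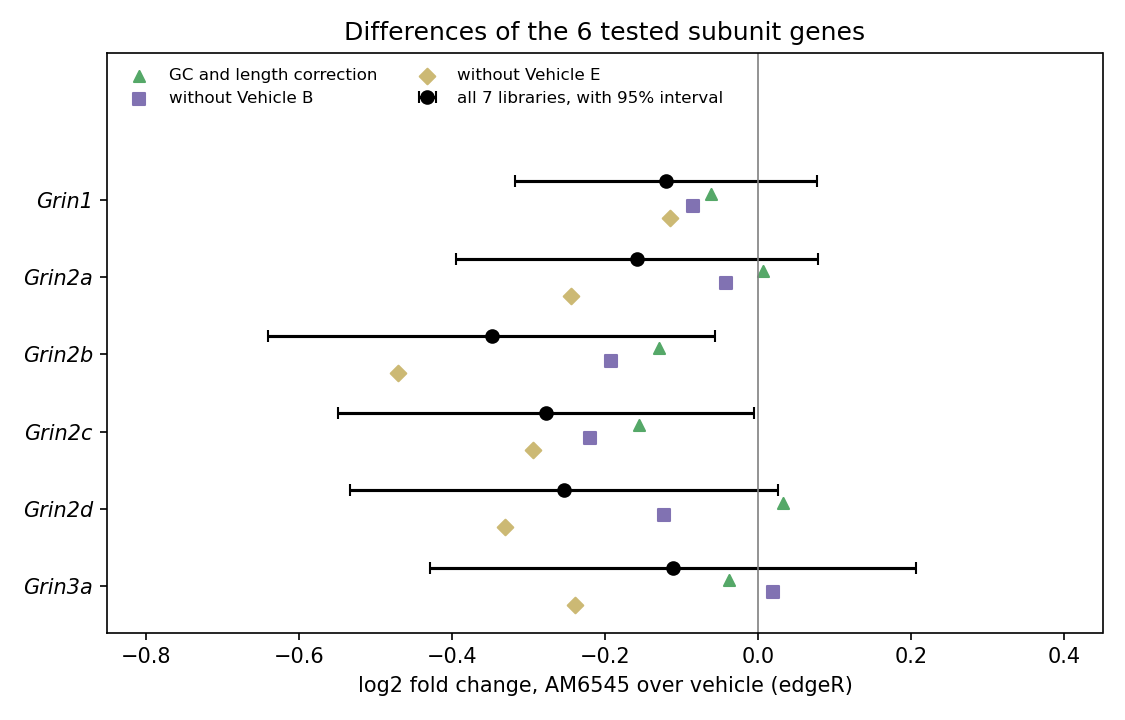
Log2 fold change (horizontal axis, AM6545 over vehicle) of the 6 tested subunit genes by edgeR. Black points with 95% intervals use all 7 libraries, and the other markers give the GC and length correction and the fits without Vehicle B or Vehicle E. Grin2b ranges from -0.47 without Vehicle E to -0.13 with the correction, and Grin2a and Grin2d lie at or just above 0 with it.

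Synaptoneurosome RNA comes from many cells, so a smaller contribution from a cell type and less RNA per cell cannot be told apart. Summed excitatory neuron markers were 3680 to 3970 CPM in AM6545 and 4000 to 4710 CPM in vehicle, with no overlap, and 4 of the 5 markers had lower AM6545 levels. The 3 markers of the CA1 field, where NMDA receptors are studied most, summed to 419 to 441 CPM in AM6545 and 494 to 561 CPM in vehicle, again without overlap. Of all genes tested, 7.19% were separated with AM6545 lower, a share for single genes and not for sums. Markers of the CA3 field (237 to 278 and 257 to 286 CPM) and of the dentate gyrus (218 to 266 and 237 to 292 CPM) overlapped between the groups. So did the sums of the remaining marker lists. Among these, choroid plexus markers were at 398 to 1890 and 1510 to 2700 CPM, with 4 of 4 lower in AM6545. The part of these marker levels in the subunit values was not tested.

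The balance of Grin2a to Grin2b, which sets how long the channels stay open and changes with synaptic age, was higher on average in AM6545 libraries, but did not pass its test. Grin2a counts were 1.03, 0.972, 1.07 and 0.921 times Grin2b counts in AM6545 replicates B, D, E and F and 0.834, 0.867 and 0.927 times in Vehicle replicates B, D and E. In 3 AM6545 libraries the ratio was above every vehicle library, and replicate F fell within the vehicle range. The AM6545 mean of the log2 ratio was -0.01 ± 0.09 (SD, n = 4) and the vehicle mean -0.19 ± 0.08 (SD, n = 3). The difference of 0.19 had p = 0.0857 by exact permutation of the labels (two-sided, 35 assignments), and 0.171 after adjustment over the 4 library measures. A design of 4 libraries against 3 cannot give an exact p below 0.0286. Per length, Grin2b exceeded Grin2a in every library, with Grin2a at 0.675 ± 0.061 (SD, n = 4) and 0.613 ± 0.048 (SD, n = 3) of the Grin2b level.

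The forms of Grin1 were led by 1 transcript in each library. Grin1-205, which lacks N1, C1 and C2 and encodes GluN1-4a, held 52.9%, 52.5%, 51.5% and 55.2% of coding Grin1 counts in AM6545 replicates B, D, E and F. In Vehicle replicates B, D and E it held 44.5%, 47.5% and 56.4%. Next came Grin1-206, with C1 and C2' (GluN1-3a), at 16.3% to 18.9% over the 7 libraries. Together these C2'-ended forms without N1 took most of the counts, and the C2' ending carries the PDZ-binding codons printed above. Coding transcripts held 99.5% to 99.7% of all Grin1 counts.

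Grin1-201, with C1 and C2 (GluN1-1a), held 8.76% ± 1.34 in AM6545 (SD, n = 4) and 10.6% ± 4.14 in vehicle (SD, n = 3). Grin1-202, with C2 alone (GluN1-2a), held 8.49%, 6.90%, 8.07% and 7.13% in AM6545 replicates B, D, E and F, all below the 13.4%, 13.3% and 9.72% of Vehicle replicates B, D and E. Grin1-206 was above the vehicle shares in all AM6545 libraries, at 17.1%, 17.8%, 18.9% and 17.2% against 16.3%, 16.6% and 16.4%. In CPM the Grin1-206 groups overlapped, with means of 52.4 ± 4.89 in AM6545 (SD, n = 4) and 52.6 ± 1.89 in vehicle (SD, n = 3). The shares of single forms were not tested. The N1 forms Grin1-203 and Grin1-204 were each at most 11.2%.

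The N1 forms with the C2' ending were listed at 0 in 6 of the 7 libraries. Grin1-207 had 562.5 estimated counts in Vehicle replicate B only, 6.79% of that library's coding Grin1 counts, where Grin1-204 stood at 1.19% against 6.35% to 11.2% elsewhere. Grin1-208 had 89.4 estimated counts in AM6545 replicate D only. Grin1-203 was listed at 0 in Vehicle replicate D. All coding Grin1 forms, Grin1-202 among them, differ from each other by the same 3 choices of sequence, so the estimates divide reads that they share. In the annotation the N1 forms also start at a different base than the others, 25 bases downstream of Grin1-201, Grin1-202 and Grin1-206 and 92 bases downstream of Grin1-205.

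**Figure D4:**
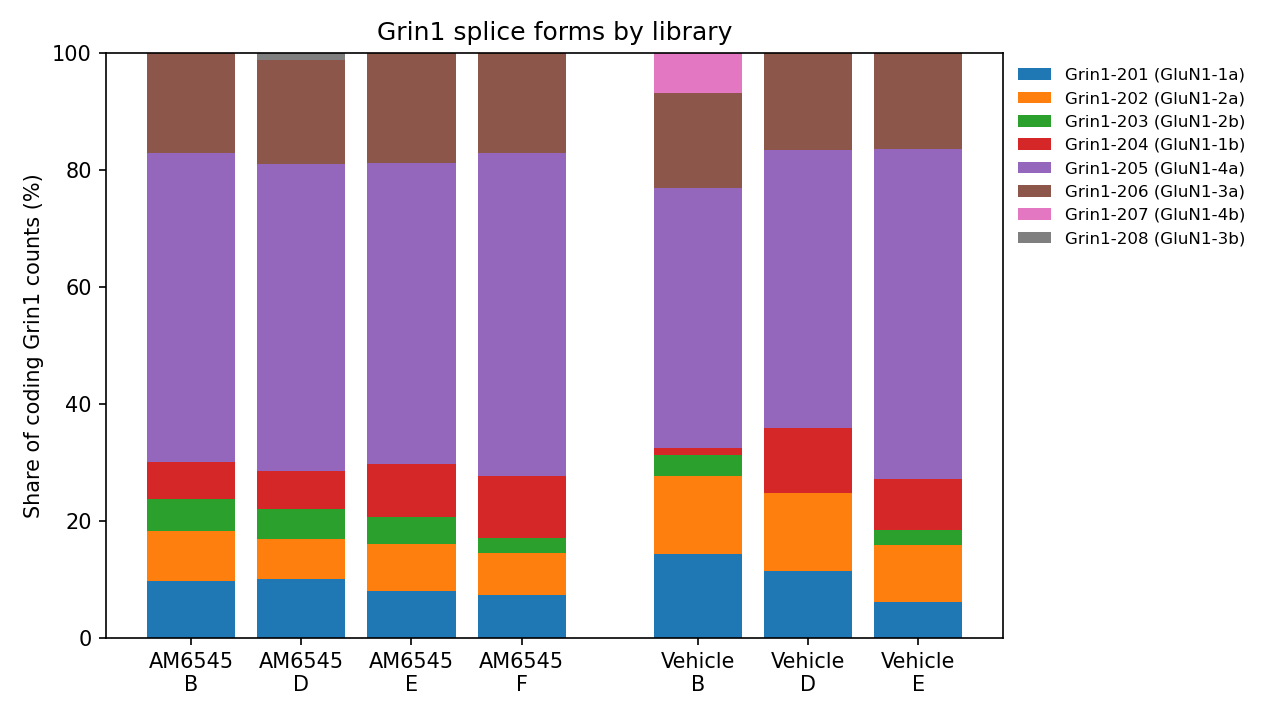
Share of coding Grin1 counts (%) held by each of the 8 coding transcripts, stacked, in 4 AM6545 and 3 vehicle libraries. Grin1-205 takes 44.5% to 56.4% in every library, Grin1-207 appears in Vehicle B only and Grin1-208 in AM6545 D only.

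Summed over forms, the N1 cassette was steadier than the single forms that carry it. N1 forms held 11.8%, 12.8%, 13.6% and 13.2% of Grin1 counts in AM6545 replicates B, D, E and F, and 11.5%, 11.2% and 11.4% in Vehicle replicates B, D and E. Every AM6545 library was above every vehicle library. The difference of 1.495 percentage points (means 12.9% ± 0.805, n = 4, and 11.4% ± 0.141, n = 3) had p = 0.0571 in the two-sided exact permutation test and 0.171 adjusted over the 4 measures.

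C1 forms held 33.2%, 35.5%, 35.9% and 35.04% in AM6545 replicates B, D, E and F and 31.8%, 39.2% and 31.3% in Vehicle replicates B, D and E, where replicate D was the highest of all. The difference of 0.836 percentage points had p = 0.714 by the exact permutation test. It turned to -0.312 without Vehicle replicate B and -0.561 without Vehicle replicate E, and was 3.38 without Vehicle replicate D. C2 forms held 30.0%, 28.5%, 29.6% and 27.6% in AM6545 replicates B, D, E and F and 32.3%, 35.9% and 27.2% in Vehicle replicates B, D and E. Vehicle replicate E was the lowest for C2, below all AM6545 libraries, and the difference of -2.88 percentage points had p = 0.286 by the exact permutation test. It was -0.834 without Vehicle replicate D and -5.20 without Vehicle replicate E. None of the cassette shares passed after adjustment, and vehicle libraries were more widely spread than AM6545 libraries for C1 and C2.

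**Figure D5:**
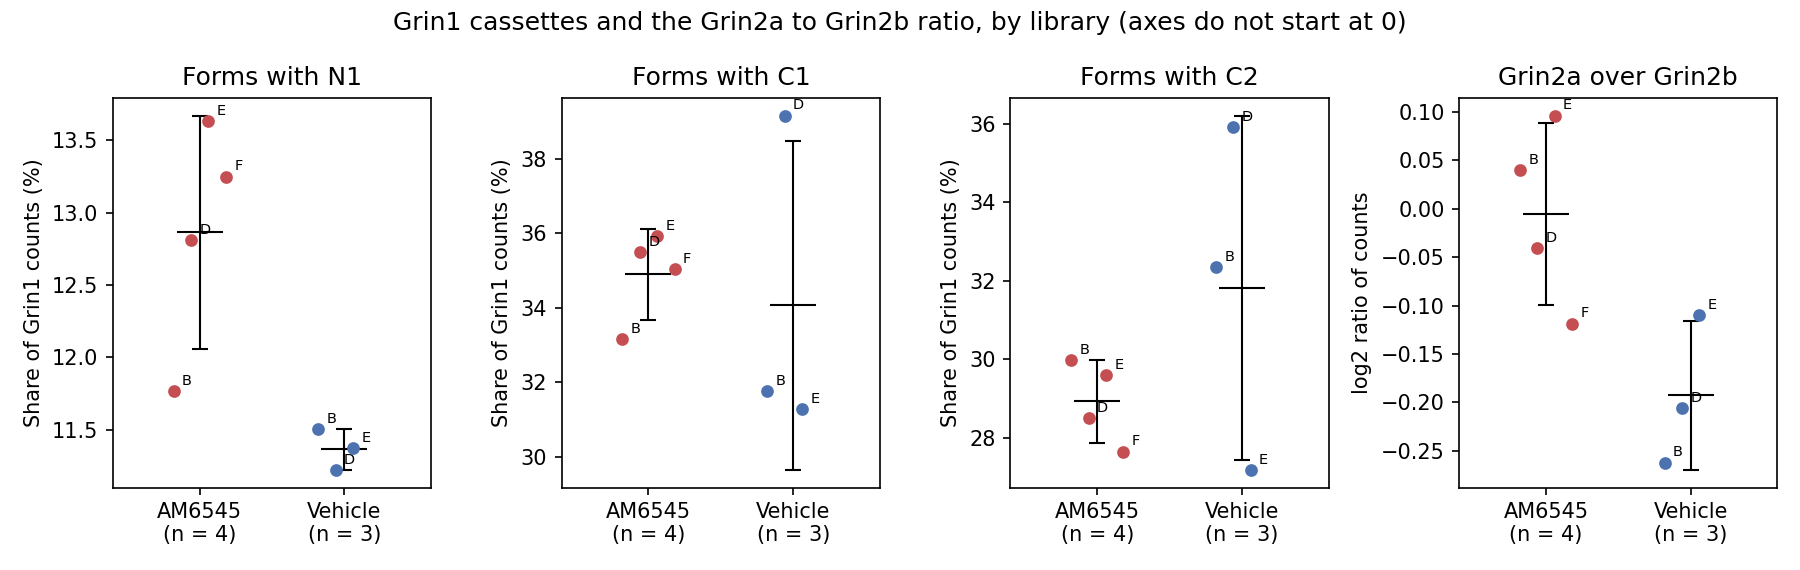
Share of Grin1 counts in forms with N1, C1 and C2 (%) and log2 ratio of Grin2a to Grin2b counts, by library; axes do not start at 0. Points are libraries with their letter, and bars show mean and SD of 4 AM6545 and 3 vehicle libraries. The N1 shares of AM6545 (11.8% to 13.6%) lie above those of vehicle (11.2% to 11.5%).

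Among the 17 subunit transcripts past the filter, none passed the transcript test, with edgeR adjusted p-values from 0.509 to 0.994. Over all transcripts 6, or 0.0177%, passed it. Of the 17, 3 had an unadjusted p under 0.05, against 8.39% of all transcripts, and 13 of the 17 had log2 fold changes below 0, against 49.7%. In 2 of the 17 every AM6545 library was below every vehicle library, which held for 5.59% of all transcripts. The opposite separation was seen in none of the 17 and in 5.23% of all.

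Grin1-202 was one of those 2, at 25.7, 19.4, 25.4 and 20.2 CPM in AM6545 replicates B, D, E and F and 44.8, 40.9 and 30.9 CPM in Vehicle replicates B, D and E. The log2 fold change was -0.78 (SE 0.17; 95% interval -1.17 to -0.39; unadjusted p = 0.00219, edgeR adjusted p = 0.509). DESeq2, which called 431 of all transcripts, gave -0.78 with an adjusted p of 0.0126. Grin1-203, which has the same C2 ending with N1 added, had means of 13.1 CPM in AM6545 and 6.67 CPM in vehicle. It was at 0 in Vehicle replicate D. The estimates divide reads that Grin1-202 and Grin1-203 share, so the Grin1-202 difference depends on that division. Their sum was not tested. Grin1-205 and Grin1-206, the more abundant C2' forms, had log2 fold changes of -0.01 and 0.00, and that of Grin1-201 was -0.40 (edgeR adjusted p = 0.757). The Grin1-201 value was -0.077 without Vehicle replicate B and -0.69 without Vehicle replicate E. The remaining forms past the filter, Grin1-203 and Grin1-204, were too uneven between libraries to compare, with SEs of 1.19 and 0.63.

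Grin2b was counted mainly in 2 transcripts with the same coding exons and different ends. Grin2b-201 carries an 18.9 kb 3' UTR, and Grin2b-202, with a 3' UTR of 2.27 kb, ends within the same last exon. The long Grin2b-201 had 52.8, 66.8, 58.1 and 54.0 CPM in AM6545 replicates B, D, E and F, all below the 89.1, 83.0 and 67.7 CPM of Vehicle replicates B, D and E. Its log2 fold change was -0.47 (SE 0.13; 95% interval -0.76 to -0.17; unadjusted p = 0.00784, edgeR adjusted p = 0.559). The shorter Grin2b-202 had a log2 fold change of -0.27 (SE 0.19; edgeR adjusted p = 0.756), which was -0.066 without Vehicle replicate B and -0.43 without Vehicle replicate E. Leaving out each library in turn, Grin2b-201 stayed between -0.58 and -0.38. Grin2b-202 held 64.9% ± 4.11 of Grin2b counts in AM6545 (SD, n = 4) and 61.3% ± 2.68 in vehicle (SD, n = 3). The division between ends thus differed by less than the spread in AM6545.

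Grin3a-202, with the 60 coding bases printed above, was one of 2 coding Grin3a forms and had 4.03, 5.03, 6.10 and 1.93 CPM in AM6545 replicates B, D, E and F. Vehicle replicates B, D and E had 0.710, 2.42 and 0.837 CPM. In AM6545, 3 libraries were above all vehicle libraries, and AM6545 replicate F was below Vehicle replicate D. The log2 fold change was 1.66 (SE 0.58; 95% interval 0.30 to 3.03; unadjusted p = 0.0236, edgeR adjusted p = 0.559). It was 2.43 without Vehicle replicate D and 1.37 without Vehicle replicate B (edgeR unadjusted p = 0.0733). As a share of Grin3a counts it held 15.7% ± 5.54 in AM6545 (SD, n = 4) and 4.61% ± 3.15 in vehicle (SD, n = 3). Grin3a-202 had 495.8 estimated counts over all libraries. Both coding forms share all bases but those 60, so the estimates divide shared reads, and the level of Grin3a-202 depends on that division. Grin3a-201, without those bases, had a log2 fold change of -0.29 (edgeR adjusted p = 0.721), or -0.12 without Vehicle replicate B and -0.44 without Vehicle replicate E.

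The other named transcripts had log2 fold changes of the same sign as their genes in the fit to all libraries. Grin2a-206, whose 3' UTR of 9.93 kb is the longest of the Grin2a forms, held 99.3% of Grin2a counts in both groups and had a log2 fold change of -0.15, or -0.032 without Vehicle replicate B and -0.26 without Vehicle replicate E. Grin2c-201 held 84.2% ± 2.52 of Grin2c counts in AM6545 (SD, n = 4) and 84.6% ± 8.95 in vehicle (SD, n = 3), and its log2 fold change was -0.28, or -0.18 without AM6545 replicate B. Grin2c-202 shares its coding length of 1239 codons and has a longer 5' UTR, 773 bases against 157, and its log2 fold change was -0.23, or 0.29 without Vehicle replicate E. Grin2d-201 held 89.8% and 94.9% of Grin2d counts in AM6545 and vehicle, with a log2 fold change of -0.33, or -0.20 without Vehicle replicate B. Their edgeR adjusted p-values lay between 0.509 and 0.994, as for all 17.

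Genes that act on or with the receptor were grouped in 5 lists, and no member of any list passed the gene test in either direction. Unadjusted p-values under 0.05 were compared with all genes tested, of which 8.7% had one with a lower and 5.86% one with a higher AM6545 level. Of the 14 genes tested among 16 for supply and clearance of glutamate and co-agonists, 3 had such a p with lower and 1 with higher AM6545 levels, and the median log2 fold change was -0.07. Slc6a5 and Dao were below the filter. The 3 smallest p-values were those of Glul, the astrocytic glutamine synthetase (-0.33), Slc1a2, the main glutamate transporter (-0.45), and Slc7a10, a transporter of D-serine and glycine (-0.36), all lower in AM6545. Their edgeR adjusted p-values were 0.235, 0.245 and 0.292. Slc1a2 is also on the astrocyte list, of which 2 of 6 markers had lower AM6545 levels.

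Of 24 genes for anchoring and trafficking, 4 had an unadjusted p under 0.05 with higher and 3 with lower AM6545 levels, with a median log2 fold change of 0.11. Lin7c and Lin7b, homologous scaffold proteins that carry GluN2B-containing vesicles, lay in opposite directions, at 0.38 and -0.37 (edgeR adjusted p = 0.199 and 0.261). Lin7c was at 95.3, 105, 106 and 98.2 CPM in AM6545 replicates B, D, E and F, above the 70.2, 81.4 and 81.1 CPM of Vehicle replicates B, D and E. It was named for the smallest unadjusted p of its list. The share of all genes separated in this direction is not given here. Dlg4, encoding PSD-95, which binds the tails of GluN2 subunits, had a log2 fold change of -0.52 with overlapping groups (edgeR adjusted p = 0.2998).

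Of 28 kinases and phosphatases that act on the receptor, 2 had an unadjusted p under 0.05 in each direction, and the median log2 fold change was 0.05. They were led by Yes1, a Src-family kinase (0.53), Prkacb, a catalytic subunit of protein kinase A (0.34), and Csnk2b, the regulatory subunit of casein kinase 2, which phosphorylates GluN2B (-0.26). Among 26 genes of calcium signalling downstream, 4 had an unadjusted p under 0.05 with lower and 2 with higher AM6545 levels, and the median was -0.01. Adcy1, a calmodulin-stimulated adenylyl cyclase (-0.44), Bad, a regulator of apoptosis (-0.30), and Hras, a small GTPase (-0.32), had the smallest p-values. Of the 6 genes named here, the edgeR adjusted p-values were 0.199 to 0.299.

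Of 25 genes for expression and transport of subunit mRNAs, 4 had an unadjusted p under 0.05 with higher and 1 with lower AM6545 levels. The median log2 fold change was 0.065, and 7 of the 25 were below 0, against 48.6% of all genes. In the other lists, in the order given above, 8 of 14, 8 of 24, 13 of 28 and 15 of 26 were below 0. Fmr1, which encodes an RNA-binding protein that represses translation at synapses, was at 51.7, 53.1, 50.8 and 44.6 CPM in AM6545 replicates B, D, E and F, above the 27.5, 37.4 and 42.3 CPM of Vehicle replicates B, D and E. Its log2 fold change was 0.49 (edgeR adjusted p = 0.212). Like Lin7c, it was named for the smallest unadjusted p of its list, with no share of all genes beside the separation. Cpeb1, which controls polyadenylation and translation of dendritic mRNAs (0.37), and Ptbp2, a neuronal splicing repressor (0.37), were next, with adjusted p-values of 0.231 and 0.243.

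For each tested subunit gene the 2 genes with the most similar pattern over the 7 libraries were found by the root mean square difference of centred log2 CPM. They were Emc3 (0.0228) and Epha4 (0.0257) for Grin1, whose own spread by the same measure was 0.0846. Kctd1 (0.0265) and Fam241b (0.0287) were most like Grin2a, with an own spread of 0.142. Znrd1 (0.0406) and Ifitm10 (0.0424) were most like Grin2b (0.247), and Cenpa (0.0327) and Homer2 (0.0443) were most like Grin2c (0.202). Txndc15 (0.0346) and Nectin2 (0.0396) were most like Grin2d (0.167), and Impad1 (0.042) and Tmem17 (0.0445) were most like Grin3a (0.206). No gene was named for 2 subunits, and the libraries behind all of these patterns are the same 7, so this is a description only.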

How the data were processed

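The authors deposited estimated counts per gene and per transcript, made with Salmon 1.5.2 on build mm10 per the submitters' processing notes. The annotation release, filters and use of strand are not given in the sources used here. Per the labels' protocols, the SMARTer Ultra Low Input kit was used for library preparation. Names, lengths, exons and sequences come from GENCODE M21 (GRCm38), matched without version numbers for 22148 genes and 101527 transcripts. Of these genes 22135 carry a higher version in the deposited counts, so lengths and exons may differ from those counted.

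Counts were rounded and tested with edgeR 4.0.16 (quasi-likelihood, robust, TMM, filterByExpr, no covariate) under R 4.3.3, with Benjamini-Hochberg adjustment over all genes or all transcripts and a threshold of 0.05. SEs are the absolute log2 fold change over the square root of F, and 95% intervals use the t distribution. CPM values use TMM-scaled library sizes, and TPM values use counts over GENCODE transcript lengths, without TMM factors. Ratios and shares per library had a two-sided exact permutation test, adjusted over 4 measures. Scripts were tested on simulated data. Alternatives were scalings, DESeq2 1.42.0, limma-voom (limma 3.58.1), filters, GC and length offsets (lowess span 0.3), transcripts summed per gene, a replicate block and leaving out each library.

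Always named were the 7 subunits, then their transcripts past the filter with at least 10% of the gene's counts in either group mean (at most 5 per gene), the 3 list members with the smallest p, and the 2 most similar genes per subunit. Members and lists were chosen with earlier results of these data known.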

Additional observations from a re-analysis of the deposited data

Results flagged for a closer look

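One value of 23 compared stood apart within the 4 AM6545 libraries by Dixon's test, where chance alone would give about 1.15. Grin3a-201, the Grin3a form without the additional 60 coding bases, was at 17.0 CPM in AM6545 replicate B, whereas AM6545 replicates D, E and F had 23.8 to 24.9 CPM. The vehicle range was 21.6 to 33.2 CPM. The vehicle group of 3 was too small to be examined in this way.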

How the results depend on the processing

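Of the 72 alternatives to the counts of passing members, the cassette shares and the Grin2a to Grin2b ratio, 68 kept direction and call. Without Vehicle replicate E the count of passing subunit genes went from 0 to 1 (Grin2b; range without each library in turn 0 to 1), and with DESeq2 the count of passing transcripts went from 0 to 1 (Grin1-202). The C1 difference was -0.312 without Vehicle replicate B and -0.561 without Vehicle replicate E (range -0.561 to 3.38 percentage points). Leaving out each library in turn, C2 ranged from -5.20 to -0.834, N1 from 1.24 to 1.86, and the log2 ratio from 0.152 to 0.228. The ratio was 0.137 with the GC and length correction and 0.347 per kilobase of all transcripts, and N1 was 1.19 with counts divided by length. GC and length correction gave 0.007 for Grin2a and 0.033 for Grin2d. Leaving out single libraries, Grin3a ranged from -0.24 to 0.02, Grin1-205 from -0.069 to 0.08, Grin1-206 from -0.071 to 0.031 and Grin2c-202 from -0.52 to 0.29. Total-count scaling gave 0.018 for Grin1-205 and 0.029 for Grin1-206. The cause of these changes was not tested.

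The labels state no pairing, and libraries with the same letter did not deviate together (correlations -0.26, -0.13 and -0.18 for B, D and E). With the replicate block, 0 subunit genes and 0 subunit transcripts passed; Grin2b was -0.41, Grin1-206 0.027 and the log2 ratio 0.22, and with the GC correction added Grin2d was 0.077. Grin3b entered only the fit with no filter on low counts, in which 0 of the 7 genes passed.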
